A study of Mus musculus with 6 samples.

Results

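Complement genes were followed in transplanted mouse hearts. The members were fixed by name with earlier results of these data known, so their counts below are not independent of these data. They were the 3 chains of C1q (C1qa, C1qb, C1qc), the protease C1s1 and the proenzymes C2 and Cfb. The central component C3, properdin (Cfp) and the anaphylatoxin receptor C3ar1 completed the list. Of these 9 genes, 8 had a probe set of their own, 11 probe sets in all among the 22690 of the array, and 12393 genes were measured in total. No probe set carried the symbol C3 in the annotation used here, so C3 was not analysed. The 6 groups, of 1 array each, were allografted hearts of mice on 4-amino tetrahydrobiopterin (ABH4), tetrahydrobiopterin (BH4), N-imino ethyl-L-lysine (NIL) or cyclosporin A (CsA), an untreated allograft and an untreated syngraft. The dose was 50 mg/kg each 8 h for ABH4 and BH4, 5 mg/kg each 8 h for NIL and 15 mg/kg each 24 h for CsA. BH4 is the cofactor of nitric oxide synthases, ABH4 its 4-amino analog and antagonist, NIL a blocker of the inducible synthase and CsA an inhibitor of calcineurin. Strain, age, the day of removal and any pooling of grafts are not stated in the labels, so donor strain and alloimmunity cannot be told apart. With no replicate, no difference below was tested. A difference is called here when it is at least 1.5-fold, and the share of all 12393 genes past that fold is given beside the counts of members.

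Complement is a cascade of plasma proteins that marks cells for uptake and can lyse them. In the classical pathway C1q binds antibody or dying cells, the attached proteases C1r and C1s cleave C4 and C2, and the products form a C3 convertase. In the alternative pathway factor B (Cfb) supplies the protease of the convertase and properdin stabilises it. C3ar1 is the receptor of the C3a fragment on myeloid cells. Most plasma complement comes from the liver, whereas C1q is made largely by macrophages. The genes lie in clusters on the RefSeq assembly: C1qb, C1qc and C1qa follow each other with 0 coding genes between them, and so do the paralogous genes Cfb and C2, which lie within the major histocompatibility complex.

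The windows before the starts of C1qb and C1qc are shown because these neighbours had similar profiles. Each is the 250 bases before the annotated start (RefSeq, GRCm38.p6), both on the minus strand, at chr4:136886201-136886450 for C1qb and chr4:136892915-136893164 for C1qc. Capitals mark the letters AGGAAGT, a core bound by ETS family factors such as the myeloid factor PU.1, which lie here on the opposite strand.
C1qb: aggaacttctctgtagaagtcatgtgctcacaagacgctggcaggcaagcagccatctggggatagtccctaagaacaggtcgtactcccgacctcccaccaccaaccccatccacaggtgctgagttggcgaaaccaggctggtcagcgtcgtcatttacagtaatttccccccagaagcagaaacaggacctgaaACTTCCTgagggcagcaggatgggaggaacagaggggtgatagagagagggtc
C1qc: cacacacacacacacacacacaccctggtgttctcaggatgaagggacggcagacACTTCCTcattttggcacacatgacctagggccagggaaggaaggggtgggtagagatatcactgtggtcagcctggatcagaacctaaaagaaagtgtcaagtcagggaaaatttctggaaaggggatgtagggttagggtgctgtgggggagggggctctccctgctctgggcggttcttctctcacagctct
The match ended 47 bases before the start in C1qb and 189 bases before it in C1qc. These letters, chosen after the windows had been read, occurred on either strand in 7.69% of 32851 such windows. The core of an interferon-stimulated response element (in 2.98% of windows), a gamma-activated site (TTCNNNGAA, 7.02%) and an NF-kappa-B core (0.356%) occurred on neither strand in any of the 6 windows of C1qb, C1qc, C1s1 (2 starts), C3ar1 and Cfp. Windows of C1qa, C2 and Cfb were not analysed here.

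The deposited medians of the arrays lay between 77.6 and 88.5, and bringing them to a common median moved the arrays by -0.09 to 0.10 on the log2 scale. Signals under 34.8 were set to that floor before log2 was taken. Cardiomyocyte markers were present as the label has it: all 8 were above the floor on all arrays, with summed signals between 27786 and 39104. Of 5 measured hepatocyte markers, Apoa1, Ahsg and Fgb were at the floor on all 6 arrays and Ttr on 5, and albumin (Alb) reached at most 79.0. On the BH4 array the 3 salivary gland markers summed to 10205, against 104 to 311 on the other arrays, and their part in the BH4 values below was not tested.

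**Figure D1:**
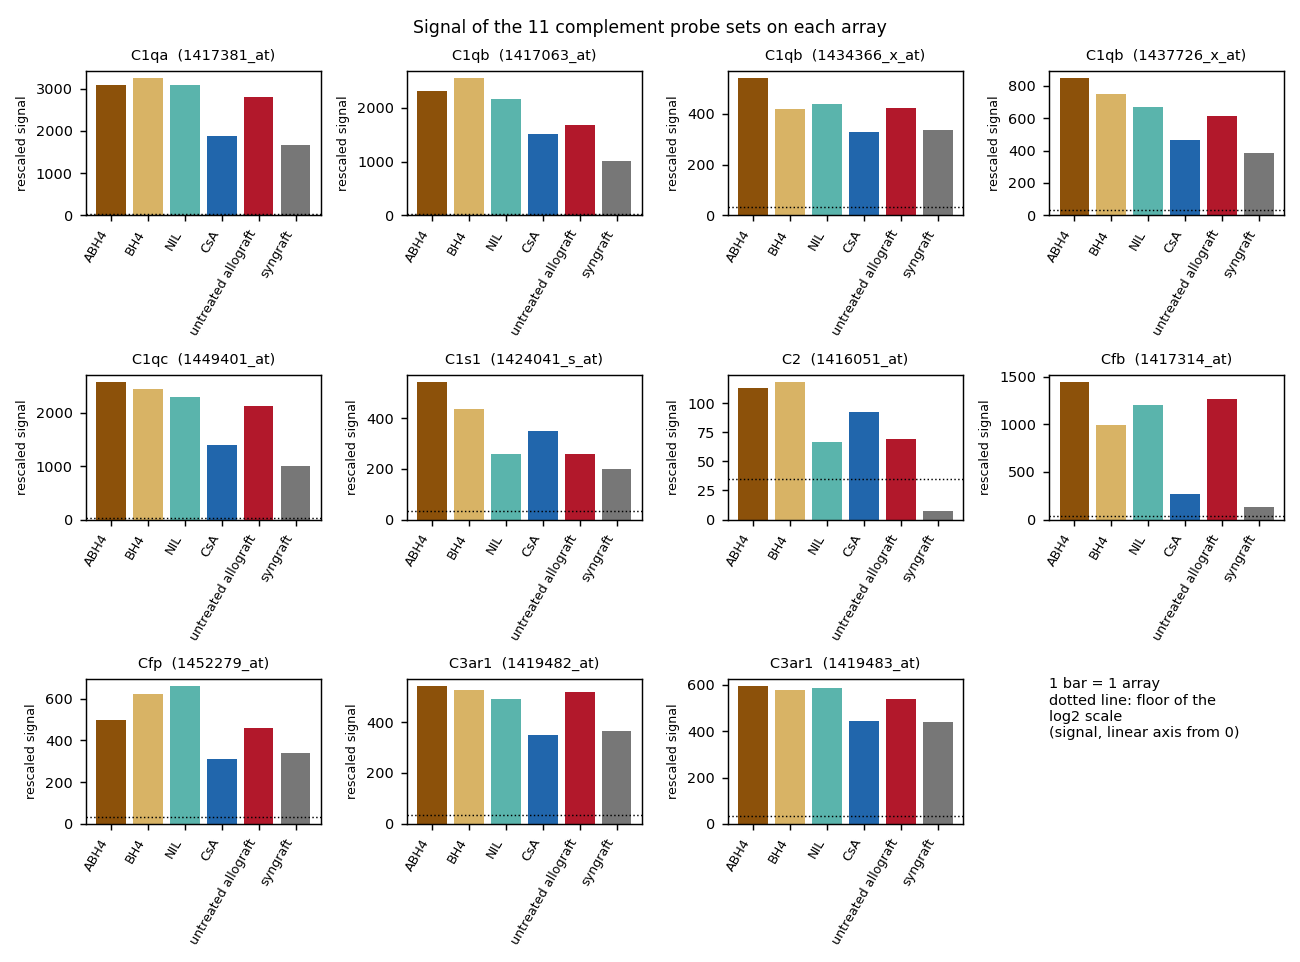
Rescaled signal (linear axis from 0) of each of the 11 complement probe sets, 1 bar for each of the 6 arrays, with the floor as a dotted line. Cfb had 991 to 1446 with ABH4, BH4, NIL and no treatment, 268 with CsA and 131 on the syngraft, and C2 was below the floor on the syngraft alone.

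The untreated allograft was set beside the syngraft, a comparison in which donor strain and alloimmunity cannot be told apart. Complement genes of both pathways had higher signals in the allograft. Among the members above the floor in both grafts the difference was by far the largest for Cfb. The call was higher for 5 of the 8 genes and lower for 0, where 15.4% of all genes were higher and 11.9% lower. Without rescaling, 10.9% of all genes were higher and 17.2% lower. The median log2 difference of the 8 genes was 0.75, and that of all genes was 0.00.

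The 3 chains of C1q, which assemble into 1 molecule, were all higher. C1qa, which encodes the A chain, had a signal of 2813 in the untreated allograft, against 1674 in the syngraft, 1.68-fold higher. C1qb, the B chain, had 1688 and 1007 in the same order, also 1.68-fold, and C1qc, the C chain, had 2137 and 1004, 2.13-fold. As deposited, C1qa and C1qb differed by 0.56 on the log2 scale, below 1.5-fold, and by 0.51 each after quantile normalization, so that the call of these chains depends on the scaling. The other probe sets of C1qb differed by 0.67 and 0.34. Both are marked by their names as able to bind related transcripts. In bulk RNA, fewer cells of a type and less RNA per cell cannot be told apart. Of 9 measured macrophage and monocyte markers, 2 were higher and 1 lower in the allograft (median 0.04), where 15.4% of all genes were higher and 11.9% lower. Their summed signal was 9377, against 8815 in the syngraft. Csf1r, the receptor that macrophages need to survive, had 2027 and 1972, and Msr1, a scavenger receptor, had 838 and 145. The part of macrophage number in the C1q values was not tested.

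The enzymes of the classical pathway were also above the syngraft, C2 past 1.5-fold and C1s1 not. C2 had 69.3 in the allograft, at least 1.99-fold higher than in the syngraft, where it was under the floor. The size of the C2 difference depends on the floor: it was 3.20 on the log2 scale when the floor was the 10th percentile of all values, and with the median of all values as the floor C2 lay at it in both grafts and showed no difference. C1s1, whose protein cleaves C4 and C2, had 258 in the untreated allograft, against 201 in the syngraft, a log2 difference of 0.36. Its probe set is of a kind that can read several related transcripts.

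Of the alternative pathway, Cfb had 1261 in the untreated allograft, against 131 in the syngraft, 9.63-fold higher, and this difference was at least 3.08 on the log2 scale under the scalings, floors and probe set summary tried. Cfp had 458 and 341, a difference of 0.42. Interferon-gamma induced genes outside complement were also higher in all 5 measured cases, where 15.4% of all genes were higher. Among the 5 were Gbp2, a guanylate-binding protein (4.78), the immunoproteasome subunit Psmb9 (3.60) and the transcription factor Irf1 (2.44). The receptor C3ar1 had 539 and 439 by its brighter probe set and 519 and 367 by the other, log2 differences of 0.30 and 0.50. Among the members other than C2, whose difference is a lower bound, Cfb stood furthest from the syngraft, the C1q chains came next, and C1s1, Cfp and C3ar1 were nearest to it.

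**Figure D2:**
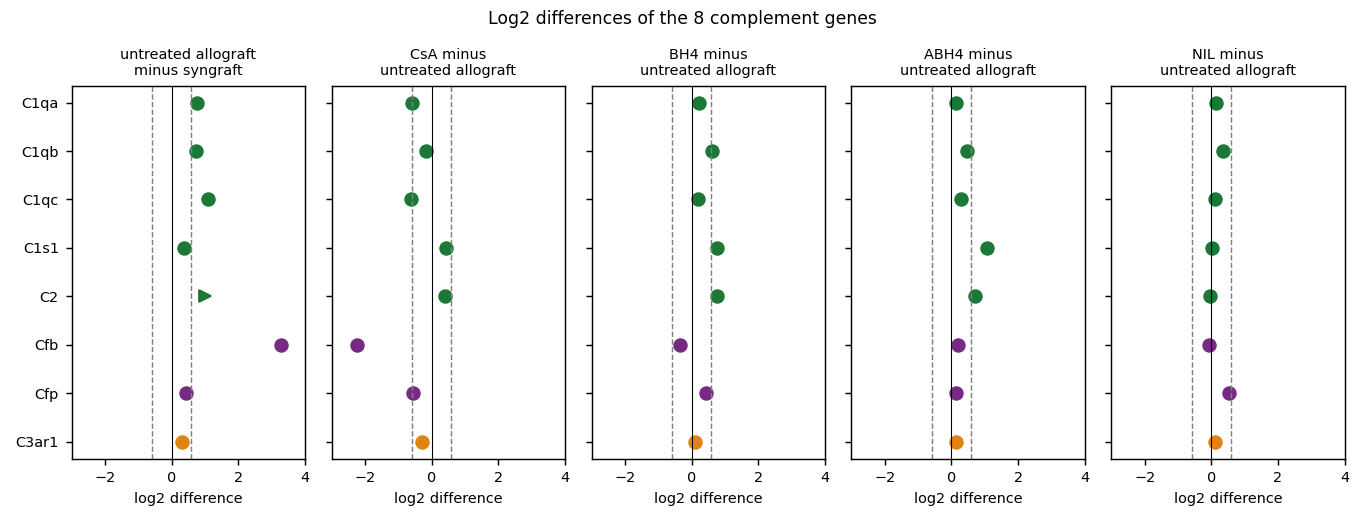
Log2 difference (horizontal axis) of each of the 8 genes in 5 comparisons, green for classical members, purple for alternative ones and orange for the receptor. Dashed lines mark 1.5-fold, and the triangle is a lower bound (C2, under the floor in the syngraft). Cfb lies at 3.27 in the untreated allograft against the syngraft and at -2.23 with CsA against the untreated allograft.

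CsA, which blocks T cell activation, separated the members. Cfb had a signal of 268 with CsA, against 1261 in the untreated allograft, 4.71-fold lower, yet it remained 2.05-fold above the syngraft. C1qc had 1390.3 with CsA and 2137 without, 1.54-fold lower, and C1qa had 1873 and 2813, a log2 difference of -0.59 and just past 1.5-fold. These 3 of 8 genes were lower and 0 were higher, where 12.2% of all genes were lower and 9.31% higher. As deposited 7.4% were lower and 13.8% higher, and after quantile normalization 8.75% and 10.3%. Under both of those scalings C1qa and C1qc stayed within 1.5-fold and Cfb alone was lower, while C1s1 was called higher in both (0.63 and 0.66) and C2 as deposited (0.60).

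The remaining members split in direction. C1qb had 1515 with CsA and 1688 without by its brightest probe set, a log2 difference of -0.16 that became 0.03 as deposited and 0.08 after quantile normalization. By its other probe sets it differed by -0.37 and -0.41. Cfp had 311 and 458 in the same order (-0.56), and C3ar1 446 and 539 (-0.27), or 350 and 519 by its other probe set (-0.57). C1s1 and C2 lay on the other side: C1s1 had 351 with CsA and 258 without (0.45), and C2 had 92.3 and 69.3 (0.41). C2 and Cfb are neighbours and paralogs, and their CsA differences were 0.41 and -2.23. Against the syngraft, with CsA, C2 was at least 2.65-fold, C1s1 1.75-fold and C1qb, at a log2 difference of 0.59, just past 1.5-fold higher, so that with Cfb 4 of 8 genes were higher and 0 lower (all genes 6.83% higher and 5.84% lower). The C2 difference there was 3.62 on the log2 scale with the 10th percentile of all values as the floor and 0.15 with their median. The C1qb call there rests on 1 probe set: its others differed by 0.26 and -0.03, and the mean over its probe sets by 0.27. C1qa, C1qc, Cfp and C3ar1 differed by 0.16, 0.47, -0.13 and 0.02.

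Markers of several cell groups moved with the CsA array. Of all genes, 9.31% were higher and 12.2% lower with CsA than in the untreated allograft (13.8% and 7.4% as deposited). The 5 measured T cell markers were all lower with CsA, with a summed signal of 158 and 3 of 5 at the floor, against 1649 and 0 at the floor in the untreated allograft, while in the syngraft all 5 were at the floor (79.0). The 8 fibroblast and matrix markers were all higher, with 25472 with CsA, against 5095 in the untreated allograft and 28951 in the syngraft. Macrophage markers summed to 8752 with CsA and 9377 without, with 2 of 9 higher (Mrc1 and Cd163) and 2 lower (Fcgr1 and Msr1). Neutrophil markers summed to 542 with CsA and 1089.8 without, with 3 of 7 lower and 0 higher, and endothelial markers to 1169 and 844, with 3 of 6 higher and 0 lower. Of the genes induced by interferon-gamma, 5 of 5 measured were lower with CsA, with a median log2 difference of -0.95. The part of these cells and genes in the complement values was not tested.

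The pteridines were compared at a matched dose and interval, and both arrays were first set against the untreated allograft. Those comparisons, like those of NIL and CsA, share the untreated array, so they are not independent of each other. With ABH4 and with BH4 the classical members C1s1 and C2 were higher, and Cfb was not called. C1ra, the partner protease of C1s1, had 375 with ABH4 and 273 with BH4, against 255 in the untreated allograft. Both C1ra differences were within 1.5-fold after rescaling. C1s1 had 544 with ABH4, 437 with BH4 and 258 in the untreated allograft, 2.11-fold and 1.70-fold higher. C2 had 113 with ABH4, 118 with BH4 and 69.3 without, 1.63-fold and 1.71-fold higher, and 0.44 and 0.51 on the log2 scale with a floor at the median of all values, which is under 1.5-fold. C1qb was 1.52-fold higher with BH4 (2561, against 1688) and 1.37-fold with ABH4 (2314). One other probe set of C1qb differed by 0.29 with BH4 and the last by -0.02, so that C1qb with BH4 rests on 1 probe set. C1qa had 3081 with ABH4 and 3263 with BH4, against 2813, and C1qc had 2586 and 2446, against 2137, all within 1.5-fold. Macrophage and monocyte markers summed to 10007 with ABH4 and 11942 with BH4, against 9377 in the untreated allograft. The marker Lyz2 alone had 3675, 5187 and 3687 in the same order. Of 9 such markers measured 2 were higher with ABH4 and 1 with BH4, and 0 were lower with either. The part of these markers in the C1q values was not tested. In all 2 of 8 genes were higher with ABH4 (all genes 3.24% higher and 2.49% lower, or 3.79% and 1.78% as deposited) and 3 of 8 with BH4 (all genes 4.9% higher and 3.35% lower), and 0 were lower with either.

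The alternative pathway genes and the receptor stayed within 1.5-fold. Cfb had 1446 with ABH4 and 991 with BH4, against 1261 in the untreated allograft, differences of 0.20 and -0.35. Cfp had 499 with ABH4 and 621 with BH4, against 458, differences of 0.12 and 0.44. C3ar1 had 596 and 577 against 539, differences of 0.15 and 0.10. Fibroblast and matrix markers summed to 10173 with ABH4 and 19057 with BH4, against 5095 in the untreated allograft, with all 8 higher in each. Of all genes 3.24% were higher with ABH4 and 4.9% with BH4. The syngraft, with 28951, had the lowest C1s1 and C2 of the 6 arrays. The part of fibroblasts in the C1s1 and C2 values was not tested.

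Between the 2 pteridines, the 1 pair of related compounds here, 0 of 8 genes were higher and 0 lower with ABH4 than with BH4 (all genes 3.26% higher and 4.11% lower). The median difference of the 8 genes was -0.01. Furthest apart was Cfb, at 1446 with ABH4 and 991 with BH4, 1.46-fold higher, which passed 1.5-fold after quantile normalization (0.60). On the log2 scale C1s1 differed by 0.32 and Cfp by -0.32. With 1 array each no interval can be given for these differences, and they do not show that the compounds act alike.

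NIL left all 8 genes within 1.5-fold of the untreated allograft, where 6.37% of all genes were higher and 5.33% lower (9.55% and 2.82% as deposited). The largest difference was that of Cfp, with 662 with NIL and 458 without (0.53, or 0.68 as deposited and 0.74 after quantile normalization, both past 1.5-fold). C1qa, C1qb and C1qc had 3075, 2155 and 2306 with NIL, against 2813, 1688 and 2137 without, where macrophage markers summed to 10431 and 9377. Of 9 such markers measured 1 was higher with NIL and 0 were lower. C1s1 had 260.1 and 258, and C2 had 66.9 and 69.3, a difference of -0.05 that was 0.10 as deposited. Cfb had 1204 with NIL and 1261 without, -0.07, which turned to 0.08 as deposited and 0.15 after quantile normalization. The dose of NIL differs from that of the pteridines, so the values only stand side by side. Fibroblast and matrix markers summed to 4631 with NIL and 5095 without, with 0 of 8 past 1.5-fold.

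**Figure D3:**
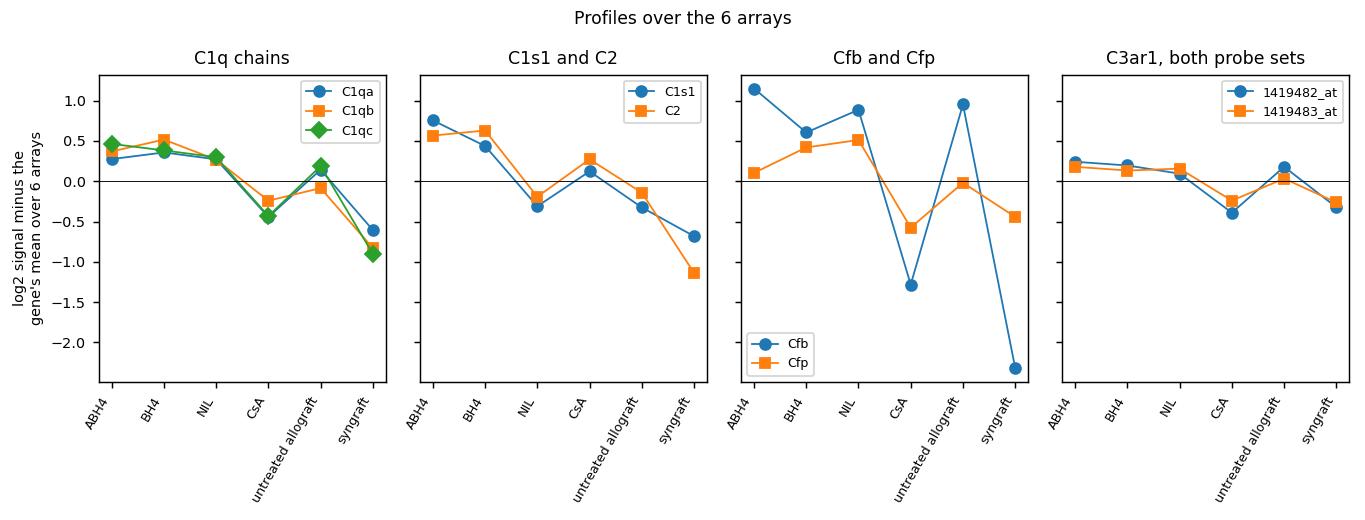
Log2 signal of each gene minus its own mean over the 6 arrays (vertical axis), with lines that only join the points of a gene. The C1q chains lie close together, C1s1 and C2 are higher with ABH4 and BH4 than with NIL, and Cfb spans 3.47 on the log2 scale. C2 is drawn at the floor in the syngraft.

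Profiles were also compared between members. The root mean square difference between centred log2 profiles over the 6 arrays was 0.15 for C1qa and C1qc, 0.17 for C1qa and C1qb and 0.15 for C1qb and C1qc. It was 0.16 for C1qa and Cfp, 0.20 for C1qa and C3ar1 and 0.24 for C1s1 and C2, but 0.43 for C1qa and C1s1 and 1.04 for C2 and Cfb. This measure grows when the spans of 2 genes differ. The Pearson correlation of Cfb was 0.96 with C1qa, 0.87 with C1qb, 0.98 with C1qc and 0.64 with C2. For C1qa it was 0.93 with C1qb and 0.53 with C1s1. C2 was set to the floor in the syngraft, so the values of its pairs (0.24, 1.04 and the correlation of 0.64) depend on the floor. The log2 difference of C2 between the untreated allograft and the syngraft was 0.995 with the floor used. With the floor at the 10th percentile it was 3.20. Whether C2 lies nearer to C1s1 than to Cfb with another floor was not tested. Over the arrays the signal of Cfb spanned 3.47 on the log2 scale. The span was at least 3.40-fold for C2, 2.71-fold for C1s1, 2.12-fold for Cfp, 1.95-fold for C1qa and 1.36-fold for C3ar1. Highest for C1qa, C1qb and C2 was the BH4 array, by the probe set used for each gene. In the same way the ABH4 array was highest for C1qc, C1s1, Cfb and C3ar1 and the NIL array for Cfp. The other probe sets of C1qb were highest with ABH4. After quantile normalization C1qa was higher with ABH4 than with BH4 (0.04). By the probe set used for each gene the syngraft was lowest for all 8 genes other than Cfp, which was lowest with CsA (311, against 341 in the syngraft). For C3ar1 the syngraft and CsA arrays changed places after quantile normalization. No replicate tells neighbours in these orders apart.

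Likeness to other genes was measured by the same root mean square difference over the 6 arrays, among 8094 genes above the floor on every array. It is a description. Nearest to Cfb were AW112010, Bst1 and the T cell chemokine Ccl5 (0.16, 0.19 and 0.19). Nearest to C1qc were AI413582, the necroptosis kinase Ripk3 and the interleukin-4 receptor Il4ra (0.07, 0.08 and 0.08), and nearest to C1qb the mitotic kinase Aurkb, the replication factor Wdhd1 and Ttc39b (0.09, 0.10 and 0.12). C2 lay nearest to Vcam1, an adhesion molecule of activated endothelium (0.15), Ms4a4d (0.19) and Uchl1 (0.20). C2 itself was set to the floor in the syngraft, so its nearest genes and their values depend on the floor. C1s1 was nearest to Aarsd1, Blmh and Nupr1 (0.18, 0.20 and 0.21), and Cfp to Naip5, Ptprj and Slc8b1 (0.12 each).

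Of 42 other complement genes listed, 31 had a probe set of their own. The probe set for C4 names C4a and C4b together and entered no comparison. In the untreated allograft 4 of the 31 were higher and 9 lower than in the syngraft, where 15.4% of all genes were higher and 11.9% lower (10.9% and 17.2% as deposited), and the median was -0.08. The receptors lay on both sides. Itgb2, the common chain of complement receptors 3 and 4, was 6.25-fold higher (2036 in the allograft, 325 in the syngraft), its partners Itgam and Itgax 2.41-fold and 2.28-fold, and the C5a receptor C5ar1 1.52-fold (314 and 207, within 1.5-fold as deposited and after quantile normalization). Vsig4, a C3 fragment receptor of resident macrophages, was 2.64-fold lower (46.0 and 122). With CsA the same 5 receptors differed from the untreated allograft in the opposite direction. The untreated allograft array is shared with the comparison that picked them, so these directions are not independent. Itgb2 was 4.16-fold and Itgam 1.93-fold lower with CsA, and Itgax 1.54-fold lower (a call it lost as deposited and after quantile normalization). C5ar1 was lower with 157 against 314, and Vsig4 was 2.46-fold higher. Of all genes 12.2% were lower and 9.31% higher with CsA than in the untreated allograft (7.4% and 13.8% as deposited).

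Of 12 measured regulators 0 were higher in the untreated allograft than in the syngraft and 3 lower, with 4 at the floor in both and a median of -0.06. Of all genes 15.4% were higher and 11.9% lower in that comparison, or 10.9% and 17.2% as deposited. The lower ones were Vtn, vitronectin, which blocks the terminal complex (2.94-fold, 52.2 and 153), Cfi, the protease that cleaves C3b (1.82-fold, 96.5 and 176), and Cd46, a membrane cofactor (1.66-fold, 46.1 and 76.5). Cr1l, the membrane regulator known as Crry, had 563 and 460.0, and Cd59a, which blocks the terminal pore, 457 and 484. Serping1, the C1 inhibitor, had 1909 with ABH4 and 1944 with BH4, against 1127 with NIL, 1465 with CsA, 1181 in the untreated allograft and 1731 in the syngraft. It was thus 1.62-fold higher with ABH4 and 1.65-fold with BH4 than in the untreated allograft, beside C1s1, whose protein it inhibits. Serping1 was the 1 regulator of 12 called with either, where 3.24% and 4.9% of all genes were higher. Between the untreated allograft and the syngraft it stayed within 1.5-fold after rescaling, but was past 1.5-fold lower in the allograft as deposited. Cd46 was 2.53-fold higher with NIL (116, against 46.1) and Vtn 2.80-fold higher with CsA (146, against 52.2). Vtn was under the floor with NIL (23.7), a log2 difference of -0.59 from the untreated allograft. In all 1 of 12 regulators was higher and 1 lower with NIL (all genes 6.37% higher and 5.33% lower). With CsA 1 of 12 was higher and 0 lower (all genes 9.31% higher and 12.2% lower).

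Outside the members, the listed genes of the classical and lectin start and of the terminal complex included none called higher in the untreated allograft than in the syngraft. Of 6 such genes measured at the classical and lectin start 4 were lower in the untreated allograft (of all genes 11.9% were lower, or 17.2% as deposited). They were Masp1 (288 and 523), Masp2 (39.7 and 70.4), the ficolin Fcna (70.5 and 129), and Mbl1, under the floor in the allograft. Masp2 was at the floor on 3 of the 6 arrays and Mbl1 on 5. C1ra, of the classical start, was not among the 4 (255 and 245). Fcna was 2.65-fold higher with CsA and 2.70-fold higher with BH4 than in the untreated allograft. C1ra, the partner protease of C1s1, had 375 with ABH4, 273 with BH4, 233 with NIL, 181 with CsA, 255 in the untreated allograft and 245 in the syngraft. Among the 6 terminal genes C6 and C8b were at the floor on every array, Hc, C8a, C8g on 4 or 5, and C9 on 2 with no signal above 71.8. C9 alone of the 6 was called in the untreated allograft, at least 1.56-fold lower than in the syngraft.

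**Figure D4:**
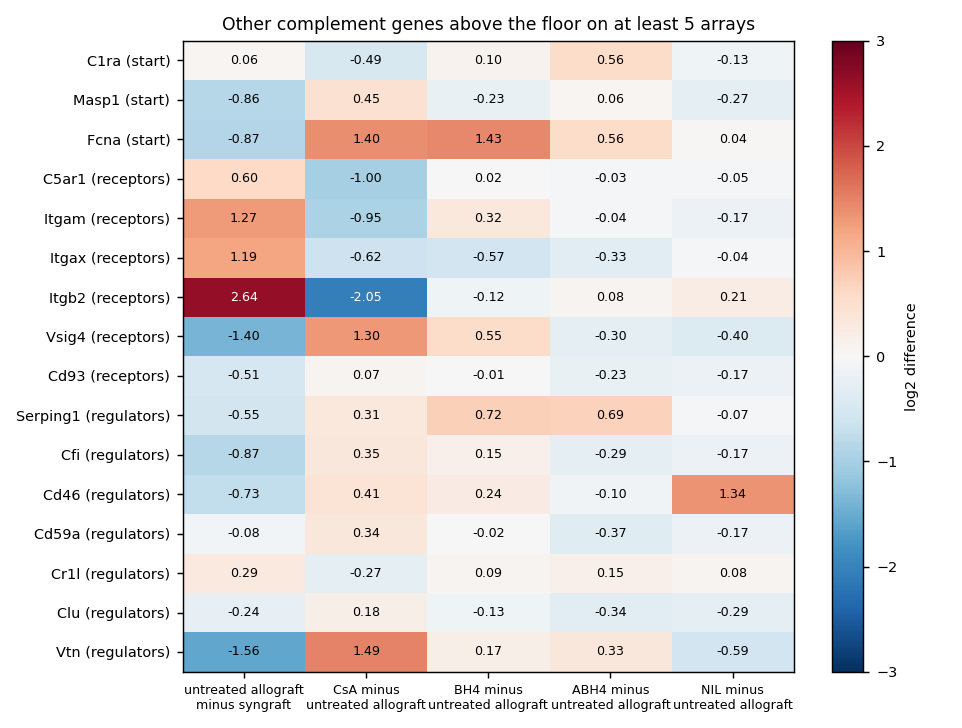
Log2 difference (colour and printed value) of the 16 other complement genes above the floor on at least 5 arrays, for the untreated allograft against the syngraft and each treated allograft against the untreated one. Itgb2 has 2.64 and -2.05 in the first 2 columns, and Vtn -1.56 and 1.49.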

How the data were processed

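Total RNA of 6 mouse cardiac grafts had been measured on 6 arrays of 1 design. The deposited values are linear intensities of 22690 probe sets, and each array already had a mean of 200.07 after trimming 2% from each end. Scanner software, summarisation and background correction are not given in the sources used here. After 64 control probe sets were left out, each array was rescaled to the mean of the array medians, values under the 30th percentile (34.8) were set to it, and log2 was taken. Probe sets were named by the platform annotation: 20380 carried 1 gene symbol, 691 several and 1555 none, and only the first entered. A gene took its brightest probe set. Calls used a fold of 1.5. With 1 array per group no test was made, and the number of arrays limits the precision. The calling step itself was checked on simulated data with known shifts. The rule named all members, listed complement genes that differed at least 1.5-fold, and for each member spanning at least 2-fold its 3 nearest profiles. Members and lists were chosen with earlier results of these data known. Promoter windows came from RefSeq (GRCm38.p6). Alternatives were deposited values, quantile normalization, floors at the 10th and 50th percentiles, the mean over probe sets, a filter on low genes and a 2-fold call. Python 3.11.15, pandas 2.3.3 and numpy 2.4.6 were used.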

Additional observations from a re-analysis of the deposited data

How the results depend on the processing

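No paired analysis was possible because each group had 1 array, and for the same reason no array could be left out. Over 5 alternatives, 280 differences of single members were recomputed: 259 kept their side of 1.5-fold, 21 crossed it, and none that was called turned its sign. Many of these could not change. The floors could move only C2, and the mean over probe sets only C1qb and C3ar1. With the values as deposited 7 of 56 crossed, and after quantile normalization also 7 of 56. Counts of the 8 members at least 1.5-fold higher in the untreated allograft than in the syngraft were 5, but 3 as deposited, 3 after quantile normalization and 2 at 2-fold. For CsA against the untreated allograft 0 were higher, but 2 as deposited and 1 after quantile normalization, and 3 were lower, but 1 under each of these scalings and 1 at 2-fold. With BH4 3 were higher, but 0 at 2-fold. With ABH4 2 were higher, but 1 with a floor at the 50th percentile and 1 at 2-fold. With NIL 0 were higher, but 1 as deposited and 1 after quantile normalization. For ABH4 against BH4 0 were higher, but 1 after quantile normalization. For CsA against the syngraft 4 were higher, but 2 at 2-fold. The other member counts stayed within 1.5 times. Counts over all genes moved mainly with the floor. Higher and lower genes numbered 1911 and 1472 for the untreated allograft against the syngraft (1355 to 2483 and 721 to 2494 over scalings, floors and probe set summaries), 1154 and 1516 for CsA (478 to 2133 and 917 to 2054), 607 and 415 for BH4 (272 to 1401 and 201 to 1114), 401 and 309 for ABH4 (147 to 1113 and 119 to 957) and 790 and 661 for NIL (174 to 1778 and 349 to 1225). They numbered 404 and 509 for ABH4 against BH4 (176 to 1091 and 230 to 1251) and 846 and 724 for CsA against the syngraft (429 to 1576 and 338 to 1454).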
